A study of Mus musculus with 24 samples.

Results

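T cells need a second signal beside their antigen receptor, and 7 genes that encode receptors for such signals were followed here in the T cells of Panc02 tumors. They were chosen by symbol, as rows of the deposited gene-by-barcode matrix of 32285 genes (the rule uses no measured value, but earlier results of these data were known when it was set). *Tnfrsf4* encodes OX40, *Tnfrsf9* encodes 4-1BB (CD137), *Tnfrsf18* encodes GITR, and *Cd27* encodes CD27, which all belong to the tumor necrosis factor (TNF) receptor superfamily. *Cd28* and *Icos* encode members of the CD28 family, and *Cd226* encodes DNAM-1, an immunoglobulin superfamily receptor. All 7 had counts in every T cell gate used here.

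Panc02 is a mouse pancreatic cancer cell line, and 3000000 cells were implanted s.c. in male C57BL/6 mice of 6–7 weeks. Each of the 8 groups received 1 combination of 3 agents, namely a neoantigen vaccine (PancVAX) and antibodies to PD-1 and to CTLA-4. The groups were isotype control, anti–PD-1, anti–CTLA-4, both antibodies, PancVAX, PancVAX plus anti–PD-1, PancVAX plus anti–CTLA-4, and PancVAX plus both antibodies. PancVAX held synthetic peptides, the adjuvant AddaVax, and a STING agonist, and was given on days 12 and 19. The labels give 50 µg of peptides, and the study's methods state this amount for each peptide. Mice without the vaccine received PBS, so that the effect of the peptides and that of the adjuvants cannot be told apart. Antibodies were given at 100 µg, with isotype antibodies in their place in the other groups. Anti–PD-1 began on day 12, and anti–CTLA-4 followed on days 15 and 22. Tumors were taken on day 38 and pooled within a group, and differences between mice cannot be seen. The cell number and days are those of the labels, and another passage of the study differs from them in the cell number, the second anti–CTLA-4 day, and the day of harvest. Each group gave a whole-tumor library and a library of cells recovered from Percoll, which keeps more of the immune cells. The 2 preparations were also the 2 sequencing batches.

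The costimulatory receptors differ in when they are present on T cells. CD28 is carried by resting T cells and binds CD80 and CD86, the ligands that the inhibitory receptor CTLA-4 also binds, whereas ICOS appears after activation and binds ICOS ligand. Both recruit phosphoinositide 3-kinase. OX40, 4-1BB, GITR, and CD27 bind TNF family ligands on antigen-presenting cells and signal through TRAF adaptors to NF-kB. OX40, GITR, and ICOS are known for high levels on regulatory T cells in tumors, and 4-1BB marks T cells that recently met antigen. CD226 binds CD155 (*Pvr*) and nectin-2, and competes for CD155 with the inhibitory receptors TIGIT and CD96.

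*Tnfrsf4* and *Tnfrsf18* are neighbors on chromosome 4, and their promoter windows are shown with those of *Tnfrsf9* because all 3 lie on this chromosome and were highest in the same T cell gate, as the levels given further on show. *Cd27* was the 1 other receptor gene matched in the RefSeq table of promoters, and *Icos*, *Cd28*, and *Cd226* were not matched. *Tnfrsf4* lies at chr4:156013595-156016613 and *Tnfrsf18* begins 9708 bases after its end, at chr4:156026322-156028894, both on the plus strand (GRCm38). *Tnfrsf9* lies at chr4:150920155-150946104 on the plus strand and has 2 annotated starts. *Icos* (chr1:60960773-61000322) and *Cd28* (chr1:60746388-60773359) lie 187413 bases apart on chromosome 1, and *Cd27* lies at chr6:125232620-125237136 on the minus strand. Each line holds the 250 bases before an annotated RefSeq transcript start (GRCm38.p6), 5′ to 3′ on the plus strand, in the order chr4:156013445-156013694, chr4:156026072-156026321, chr4:150919905-150920154, and chr4:150927749-150927998. Capitals mark matches to 3 motifs searched on both strands, namely kB (GGG, any 5 bases, then CC), AP-1 (TGANTCA), and forkhead (TGTTTAC).
Tnfrsf4: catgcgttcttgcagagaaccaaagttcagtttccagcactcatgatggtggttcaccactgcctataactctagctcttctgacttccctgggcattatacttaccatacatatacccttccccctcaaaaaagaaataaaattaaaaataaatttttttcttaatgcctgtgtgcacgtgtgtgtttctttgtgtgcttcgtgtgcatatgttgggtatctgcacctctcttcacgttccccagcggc
Tnfrsf18: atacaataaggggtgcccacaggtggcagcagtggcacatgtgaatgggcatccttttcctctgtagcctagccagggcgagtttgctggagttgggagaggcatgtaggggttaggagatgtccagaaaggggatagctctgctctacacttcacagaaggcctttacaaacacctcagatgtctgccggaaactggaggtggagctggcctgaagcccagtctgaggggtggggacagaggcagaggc
Tnfrsf9, first start: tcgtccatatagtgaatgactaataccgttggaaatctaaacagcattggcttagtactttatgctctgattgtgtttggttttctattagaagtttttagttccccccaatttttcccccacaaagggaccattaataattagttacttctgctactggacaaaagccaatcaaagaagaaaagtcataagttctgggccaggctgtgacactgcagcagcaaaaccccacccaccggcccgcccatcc
Tnfrsf9, second start: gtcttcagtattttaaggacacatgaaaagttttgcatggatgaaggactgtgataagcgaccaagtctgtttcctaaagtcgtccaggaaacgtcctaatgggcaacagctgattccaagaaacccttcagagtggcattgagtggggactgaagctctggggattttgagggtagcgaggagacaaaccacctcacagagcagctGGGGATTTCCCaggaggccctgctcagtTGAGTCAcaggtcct

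Matches were found before the second *Tnfrsf9* start alone of these 4 windows. GGGGATTTCC lay 43 to 34 bases before that start and overlapped GGGATTTCCC at 42 to 33 bases, both kB matches, and TGAGTCA, an AP-1 match, lay 15 to 9 bases before it. Of 32851 such windows in the mouse genome, 45.8% held the kB motif, 6.75% the AP-1 motif, and 3.17% the forkhead motif. A match is a description of the sequence, and binding was not measured. The gene *Sdf4* (chr4:155992843-156013610) overlaps the first 16 bases of the annotated *Tnfrsf4* gene and ends 84 bases before the transcript start used here, so that part of the *Tnfrsf4* window lies inside both genes. Whether reads of one were counted for the other was not tested.

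The 16 libraries held 77132398–176233225 unique molecular identifiers (UMIs) in 144994 barcodes, of which 57357 (39.6%) had 200–3000 genes, 1000–10000 UMIs, under 10% mitochondrial UMIs, and no UMI of hemoglobin genes. T cells were the 14294 of these cells that lay in a T or NK cell cluster and held a UMI of *Cd3d*, *Cd3e*, or *Cd3g*, and clusters were drawn without the 7 receptors. The median T cell had 2945.5–3700 UMIs in libraries with PancVAX and 3729–4664.5 without. Among cells within these limits, 2057 barcode sequences occurred in more than 1 library, with at most 45 shared by a pair of libraries, and among T cells 130 did so. No library was left out.

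Gates used UMIs of other genes. CD8+ T cells (10364) held *Cd8a* or *Cd8b1* and no *Cd4*, and CD4+ T cells the reverse, with *Foxp3* setting regulatory (247) apart from helper cells (1123). The helper gate can hold regulatory cells whose *Foxp3* was not detected, and 2560 T cells with neither or both coreceptors were not used. A cluster of 1109 cells had *Foxp3*, *Ctla4*, *Il2ra*, and *Ikzf2* among its leading genes, far more cells than the 247 of the regulatory gate. How many of them fell in the helper gate was not counted. CD8+ T cells were split by the first match into 6 states, which are named by the genes that define them: proliferating (2573, *Mki67* or *Top2a*), *Pdcd1*+*Havcr2*+ (513), *Pdcd1*+*Tcf7*+ (332), other *Pdcd1*+ (3169), *Pdcd1*-*Ly6c2*+*Ccl5*+ (2623), and the rest (1154). *Pdcd1* encodes PD-1, *Havcr2* encodes TIM-3, and *Tcf7* encodes TCF-1. UMIs of a gate were summed over both libraries of a group, and such a sum is called a pool. Levels are given as UMIs per 1000000 UMIs of the gate (CPM), and comparisons are made within a gene only. How many of all genes have pools that do not overlap between gates was not counted, so that such positions are descriptions only.

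Check markers that took no part in the gates were measured next. *Zbtb7b*, which encodes the CD4 lineage factor ThPOK, averaged 29.3 CPM in helper, 27.6 in regulatory, and 6.41 in CD8+ T cells. *Il2ra* was at 521 in regulatory and 87 in helper cells, and *Ikzf2* at 1070 and 195. *Tox* was at 211 in *Pdcd1*+*Havcr2*+ and 30.8 in *Pdcd1*-*Ly6c2*+*Ccl5*+ cells. *Stmn1* was at 565 in proliferating cells, a level not set against other states here, so that by itself it is no check of that gate. Of 4 other markers, 3 averaged more in *Pdcd1*-*Ly6c2*+*Ccl5*+ cells than in the other 5 CD8+ states. They were *S1pr1* at 149.9 (against 17.7–127), *Klrg1* at 9.79 (against 3.42–7.23), and *S1pr5* at 2.13 (against 0–0.862), the last 2 on few UMIs. *S1pr1* does not mark effector cells alone, as it was also among the leading genes of a T or NK cell cluster led by *Tcf7*. *Cx3cr1* was at 26.5 in *Pdcd1*-*Ly6c2*+*Ccl5*+ cells and at 23.7–48.8 in the other states, and the gate is called by its genes only.

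The 4 TNF receptor genes and *Icos* averaged highest in regulatory T cells, though *Cd27* led by less than the spread between pools. *Tnfrsf4* (OX40) showed the steepest order of the 8 gates, at 2371 ± 214 CPM in regulatory cells, 864 ± 200.4 in helper cells, and 16.1 ± 8.04 in *Pdcd1*-*Ly6c2*+*Ccl5*+ CD8+ cells (SD, n = 8 pools). In regulatory cells the lowest, median, and highest pools were 2063, 2387, and 2725, and in helper cells they were 607, 837, and 1280. The steps from regulatory to helper cells, from helper cells to CD8+ states, and down to *Pdcd1*-*Ly6c2*+*Ccl5*+ cells were larger than the spread between pools. The 5 CD8+ states between helper and *Pdcd1*-*Ly6c2*+*Ccl5*+ cells, from *Pdcd1*+*Havcr2*+ (139.9 ± 58.4) to *Pdcd1*+*Tcf7*+ (93.4 ± 39.2), did not differ from their neighbors by more than that spread. A step was the gap between the means of gates next in order, set against the larger of their SDs. It ignores the pairing of gates within a pool, and the SD includes differences between treatments. Gates without such a step can still differ in the paired tests given further on. *Foxp3* was also detected in the rest gate, at 10.9 CPM, where *Tnfrsf4* was at 46.6–138 over pools. The part of regulatory cells with undetected *Cd4* in that gate was not tested.

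*Tnfrsf18* (GITR) followed with 1351 ± 184 in regulatory, 656 ± 123 in helper, and 265 ± 64.9 in *Pdcd1*+*Havcr2*+ cells, and its lowest level was 162 ± 28.1 in *Pdcd1*-*Ly6c2*+*Ccl5*+ cells. Regulatory and helper pools did not overlap, nor did helper and *Pdcd1*+*Havcr2*+ pools. Of the 6 CD8+ states from *Pdcd1*+*Havcr2*+ to *Pdcd1*-*Ly6c2*+*Ccl5*+ cells only the steps after other *Pdcd1*+ cells and after the rest exceeded the spread.

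*Tnfrsf9* (4-1BB) had a different order. It was highest in regulatory cells (1896 ± 557), but *Pdcd1*+*Havcr2*+ CD8+ cells came second (692 ± 90.6), ahead of helper cells (558 ± 200.3) by less than the spread between pools. The lowest, median, and highest pools were 560.1, 705, and 813 in *Pdcd1*+*Havcr2*+ cells and 35.8, 50.1, and 131 in *Pdcd1*-*Ly6c2*+*Ccl5*+ cells, the state with the lowest level. *Pdcd1*+*Tcf7*+ cells held 205 ± 156. Below regulatory cells, no single step in this order exceeded the spread.

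The CD28 family and *Cd27* varied less. *Icos* was at 813 ± 266 in regulatory and 434 ± 57 in helper cells, and the 6 CD8+ states, from 185 ± 93.6 in *Pdcd1*+*Tcf7*+ to 122 ± 46.8 in proliferating cells, followed each other within their spread. *Cd28* ran from 315 ± 57.1 in helper cells to 183 ± 33.6 in the rest of the CD8+ cells, with 276 ± 68.2 in regulatory cells and no step beyond the spread. *Cd27* went from 206 ± 58.6 in regulatory to 66 ± 34.5 in helper cells, the lowest gate, again without a step beyond the spread.

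*Cd226* (DNAM-1) ran the other way. It was highest in *Pdcd1*-*Ly6c2*+*Ccl5*+ CD8+ cells (71.3 ± 17.4), and none of the steps down to 49.6 ± 18.7 in *Pdcd1*+*Havcr2*+ cells exceeded the spread. Regulatory cells were last at 12.5 ± 12.2, on 11 UMIs in 247 cells, with 2 of 8 pools at 0. The plot of levels by gate shows the 7 genes side by side.

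**Figure D1:**
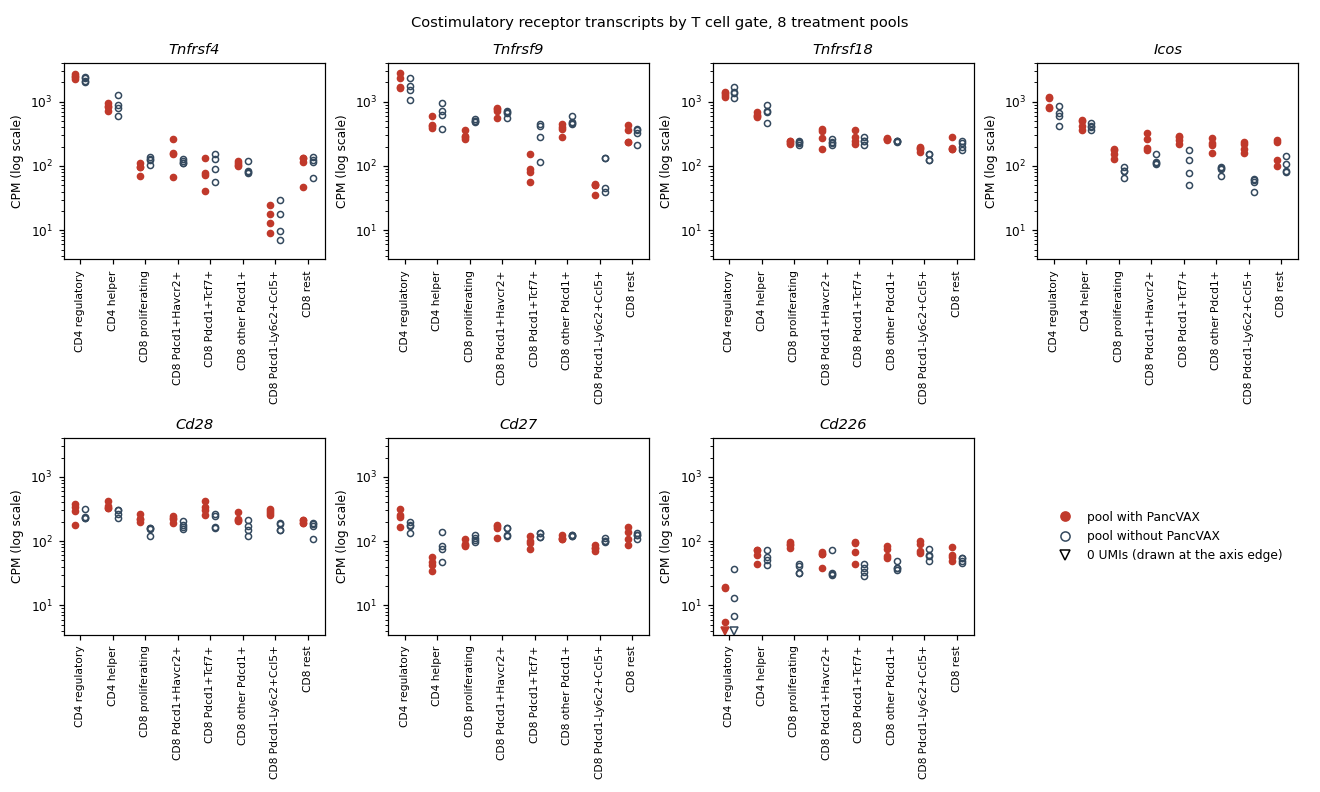
Level of each receptor gene (CPM of the gate, log axis) in 8 T cell gates, with 1 point per pool (8 per gate), filled where the pool received PancVAX and open where it did not, and a triangle at the edge for a pool with no UMI. *Tnfrsf4*, *Tnfrsf9*, *Tnfrsf18*, and *Icos* are highest in regulatory cells, where *Cd226* is lowest, and levels should be compared within a panel.

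Shares of cells with a UMI gave the same picture for *Tnfrsf4*. It was detected in 93.9% of regulatory cells, 71.5% of helper cells, and 15.5% of CD8+ T cells (medians of 3608, 3344, and 3868 UMIs per cell), against 0.494% of macrophages and monocytes (4059), which should lack it. With each cell thinned to 1000 UMIs, which left out no cell, these shares were 80.2%, 47.1%, 5.48%, and 0.172%. *Tnfrsf9* was detected in 89.5% of regulatory, 77.8% of *Pdcd1*+*Havcr2*+, and 9.61% of *Pdcd1*-*Ly6c2*+*Ccl5*+ cells. Macrophages and monocytes had 1.39% and tumor or epithelial clusters 4.6%. After thinning these shares were 69.2%, 39.4%, 4%, 0.52%, and 1.39%. *Tnfrsf4* and *Tnfrsf18* were detected together in 90.3% of regulatory cells and 58.1% of helper cells, and in 59.5% and 25.9% after thinning. *Tnfrsf18* was detected, with or without *Tnfrsf4*, in 94.3% of regulatory and 71.2% of helper cells (69.6% and 40.7% after thinning). Whether joint detection exceeded that of independent genes was not tested.

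Which receptors set the CD4+ gates apart was tested on the 8 pools, paired by group, with the quasi-likelihood test of edgeR and Benjamini-Hochberg adjustment over all genes tested. A gene was called where adjusted *P* was below 0.05 and the log2 fold change exceeded 0.5 in size. The 95% intervals given here and below are approximate and too narrow, and no call rests on them. Between regulatory and helper cells, 6 of the 7 receptors were called, 5 higher and 1 lower, where 17.2% of all tested genes were called. *Tnfrsf9* was higher by 1.68 (SE 0.14, adjusted *P* = 1.1e-08) on the log2 scale, *Tnfrsf4* by 1.35 (SE 0.09, adjusted *P* = 3.6e-10), *Tnfrsf18* by 0.92 (SE 0.10, adjusted *P* = 2.0e-07), and *Icos* by 0.75 (SE 0.11, adjusted *P* = 2.1e-05). Each was higher in 8 of 8 pools. *Cd226* was lower in 8 of 8 pools (log2 fold change -2.56, SE 0.38, adjusted *P* = 2.1e-05), on few UMIs as given above, and *Cd28* was not called (-0.33, 95% interval -0.57 to -0.09, adjusted *P* = 0.0624). In Percoll libraries only *Cd28* was called, at -0.56 (adjusted *P* = 0.0293), and its estimate ran from -0.66 to 0.05 over 18 choices.

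*Cd27* was also higher in regulatory cells, in 7 of 8 pools (log2 fold change 1.69, SE 0.25, adjusted *P* = 1.8e-05), but this depended on which cells were counted. Many T cells held UMIs of other cell types' markers, and 6353 of the 14294 held at least 2. Without them the difference was 0.57 (adjusted *P* = 0.537), when 3 pools were left with 10 or more regulatory cells. With *Ccr2*, which T cells also make, not counted among those markers, it was 1.11 (adjusted *P* = 0.0144) over 6 pools. The neutrophil markers (5 genes, 1 at 0 in this gate) summed to 0–3618 CPM in regulatory pools with PancVAX and 0–960.2 without.

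Helper cells differed from CD8+ T cells in 6 of the 7 receptors, 5 higher and 1 lower, where 13.0% of genes were called. *Tnfrsf4* was higher by 3.18 (SE 0.10, adjusted *P* = 2.1e-19), *Icos* by 1.58 (SE 0.12, adjusted *P* = 2.8e-11), and *Tnfrsf18* by 1.42 (SE 0.08, adjusted *P* = 4.2e-14) on the log2 scale, with no overlap of helper and CD8+ pools. All of them were higher still in regulatory cells, and the part of regulatory cells with undetected *Foxp3* in the helper gate was not tested. *Cd28* was higher in 8 of 8 pools by 0.56 (SE 0.07, adjusted *P* = 4.9e-07). *Tnfrsf9* was higher in 7 of 8 pools by 0.55 (SE 0.10, adjusted *P* = 1.9e-04), close to the threshold. With no upper limits on genes and UMIs per cell, for which T cells were taken by *Cd3d*, *Cd3e*, and *Cd3g* UMIs and not by cluster, it was 0.16 (adjusted *P* = 0.446). It was also not called in cells with 2000 or more UMIs (0.48), without cells that held other cell types' UMIs (0.49), in Percoll libraries only (0.42), or without the PancVAX plus anti–CTLA-4 pool (0.48). *Cd28* was not called in Percoll libraries only (0.48). *Cd27* was lower in helper cells, in 7 of 8 pools (log2 fold change -0.95, SE 0.13, adjusted *P* = 2.2e-06), and *Cd226* was not called (-0.11, 95% interval -0.37 to 0.15, adjusted *P* = 0.646).

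Among CD8+ states, the TNF receptor genes were higher in *Pdcd1*+*Havcr2*+ than in *Pdcd1*-*Ly6c2*+*Ccl5*+ cells, with 5 of 7 receptors called where 21.5% of genes were. *Tnfrsf9* was higher by 3.42 (SE 0.17, adjusted *P* = 1.8e-12) and *Tnfrsf4* by 3.05 (SE 0.20, adjusted *P* = 8.6e-11) on the log2 scale, and the pools of the 2 states did not overlap for either. *Cd27* was higher by 0.67 (SE 0.12, adjusted *P* = 2.0e-04), also without overlap, and *Tnfrsf18* by 0.60 (SE 0.10, adjusted *P* = 9.8e-05) in 7 of 8. *Cd226* was lower in 6 of 8 pools (log2 fold change -0.65, SE 0.18, adjusted *P* = 0.00883). *Cd226* was not called with no upper limits (-0.53) or in whole-tumor libraries only (-0.50). In Percoll libraries only, *Tnfrsf18* was at 0.39 and not called. *Icos* (0.45, 95% interval 0.21 to 0.70, adjusted *P* = 0.00714) and *Cd28* (-0.28, 95% interval -0.47 to -0.10, adjusted *P* = 0.0251) were not called, but *Icos* was called with no upper limits (0.65) and without the PancVAX plus anti–CTLA-4 pool (0.52). The states also differed in depth, with medians of 5481 and 3176 UMIs per cell, and the part of depth was not tested.

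Between *Pdcd1*+*Tcf7*+ and *Pdcd1*+*Havcr2*+ cells, 1 receptor was called, where 10.0% of genes were. *Pdcd1*+*Tcf7*+ cells were few, with 11–90 in a pool. *Tnfrsf9* was lower in *Pdcd1*+*Tcf7*+ cells in 8 of 8 pools (log2 fold change -1.92, SE 0.24, adjusted *P* = 3.1e-06), with the pools at 56.1, 80.4, 89.4, and 152 with PancVAX and 115, 283, 419, and 443 without, against 560.1–813 in *Pdcd1*+*Havcr2*+ cells. *Tnfrsf4* was not called (-0.52, 95% interval -1.01 to -0.04, adjusted *P* = 0.188), but without cells that held other cell types' UMIs its log2 fold change was -1.80 (adjusted *P* = 0.00354), over 5 pools with enough cells. *Cd28* (0.44, 95% interval 0.18 to 0.71, adjusted *P* = 0.0288) was called only without the pool given both antibodies and no vaccine, at 0.52. *Cd27* was lower in 8 of 8 pools without being called (-0.45, 95% interval -0.75 to -0.15, adjusted *P* = 0.0578). It was called with no upper limits (-0.59) and, with *Ccr2* not counted, without cells that held other cell types' UMIs (-0.79). *Tnfrsf4* was called in the last of these as well (-1.81), and with no filter on low counts (-0.58).

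**Figure D2:**
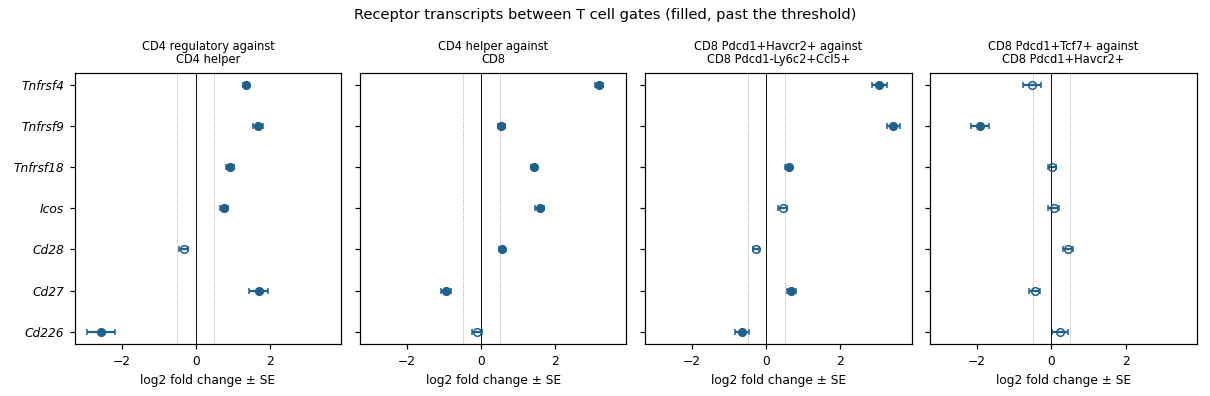
Log2 fold change (edgeR, with SE) of each receptor gene in 4 comparisons of T cell gates over 8 pools, filled where the gene was called and open where it was not. *Tnfrsf4* and *Tnfrsf9* have the largest differences between CD8+ states (3.05 and 3.42 between *Pdcd1*+*Havcr2*+ and *Pdcd1*-*Ly6c2*+*Ccl5*+ cells), and *Cd28* has small ones throughout.

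Other genes of the pathway were taken from 5 lists. Between regulatory and helper cells, 3 of 4 inhibitory receptors that share ligands with the 7 were higher, *Ctla4* by 1.98, *Pvrig* by 1.70, and *Tigit* by 1.38 on the log2 scale, and *Cd96* was lower (-1.02). The list's median was 1.54, against 0.01 over all genes, of which 17.2% were called. Of 10 other costimulatory receptors tested, 2 were higher and 2 lower, among them *Tnfrsf1b* (1.25), which encodes TNF receptor 2, and *Cd40lg* (-3.63), the ligand by which helper cells act on antigen-presenting cells. That list counts *Cd40lg* here and below, although it encodes a ligand. The TRAF and NF-kB signaling list had 3 of 17 higher and none lower (median 0.29), led by *Bcl2l1* (1.06), which encodes the survival protein Bcl-xL. This share was near that over all genes. The CD28 family signaling list had 2 higher and 3 lower of 13 (median 0.03), among them *Prkcq* (-1.50), which encodes protein kinase C theta. Of the ligands of the 7 receptors, *Tnfsf9* was tested and lower (-1.05).

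Of 21 genes on the TRAF and NF-kB list, 12 were higher in helper than in CD8+ T cells and none lower (median 0.67, against -0.03 over all genes, of which 13.0% were called). They included *Nfkbia* (1.42), *Birc3* (1.23), and *Traf1* (1.11). Of 15 genes on the list of other costimulatory receptors, 9 were higher and 3 lower (median 0.93), with the ligand gene *Cd40lg* at 4.98, *Tnfrsf25* at 4.49, and *Cd244a* at -3.71. None of the 13 CD28 family signaling genes was called (median -0.08). *Ctla4* was higher by 1.00 as the 1 called of 4 inhibitory receptors, and among 7 ligands *Cd70* (3.58), the ligand of CD27, and *Tnfsf9* (1.70), the ligand of 4-1BB, were higher.

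In *Pdcd1*+*Havcr2*+ against *Pdcd1*-*Ly6c2*+*Ccl5*+ cells, all 4 inhibitory receptors were higher (median 1.81), where 21.5% of all genes were called, with *Pvrig* at 2.06, *Ctla4* at 1.86, and *Tigit* at 1.76. The TRAF and NF-kB list was split, 3 higher and 3 lower of 21 (median 0.10), with *Traf5* at 1.22 and *Map3k14* at -1.35. Of other costimulatory receptors 2 were higher and 3 lower of 11 (median -0.31), among them *Cd244a* (3.17) and *Slamf6* (-2.40). The CD28 family signaling list had 2 higher and 1 lower of 13 (median -0.08), a share near that over all genes. *Tnfsf4*, the ligand of OX40, was higher (4.03) as 1 of 2 ligands tested.

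The effect of PancVAX was tested on 4 pools with it and 4 without, with both antibodies as covariates. In CD8+ T cells, *Icos*, *Cd226*, and *Cd28* rose and *Tnfrsf9* fell, 4 of 7 receptors called where 11.7% of all genes were. The median log2 fold change of all genes was 0.01, and 3898 of 10958 had an unadjusted *P* below 0.05 by edgeR. The share of all genes whose pools with and without the vaccine did not overlap was not counted. Where such positions are given below, in any gate, they describe a gene's levels only.

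*Icos* was at 149, 181, 217, and 239 CPM in the pools with PancVAX and 70.7, 84.1, 91.5, and 107 in those without. Every pool with the vaccine lay above every pool without it, and *Icos* rose by 1.07 (SE 0.11, adjusted *P* = 4.4e-05) on the log2 scale. The lowest vaccinated pool was PancVAX alone, and the highest received anti–PD-1 as well. Over 19 other processing choices the estimate ran from 0.94 to 1.19 and stayed called in all of them. In whole-tumor libraries *Icos* was at 145–255 with and 74.4–106 without PancVAX, and in Percoll libraries at 152–225 and 65.3–107.

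*Cd226* was at 63.3, 72, 82.8, and 90.7 with PancVAX and 39.3, 39.7, 42.1, and 47.3 without, and *Cd28* at 220.2, 235, 244, and 281 and 129, 158, 168, and 181. Pools with and without the vaccine did not overlap for either gene. *Cd226* rose by 0.78 (SE 0.09, adjusted *P* = 1.3e-04), and it was called under all 19 other choices, from 0.62 to 0.96. *Cd28* rose by 0.55 (SE 0.10, adjusted *P* = 0.00205), just past the fold threshold, and it was called under 13 of the 19 choices (0.40 to 0.79). It was not called without the isotype control pool (0.43, adjusted *P* = 0.00304) or without the PancVAX plus anti–CTLA-4 pool (0.49, adjusted *P* = 0.0136). The other choices that ended its call were T cells taken without clusters (0.48), no upper limits (0.54), removal of cells with other cell types' UMIs (0.49), and Percoll libraries only (0.40). The ranges did not overlap within either preparation, with *Cd28* at 221–276 and 114–140.2 in whole tumors and 216–288 and 151–214 in Percoll libraries.

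*Tnfrsf9* was at 199.7, 249, 285, and 309.9 with PancVAX and 429, 444, 458, and 489 without. All vaccinated pools lay below all others, and the log2 fold change was -0.89 (SE 0.10, adjusted *P* = 7.4e-05), called under all 19 other choices (-1.04 to -0.61). In whole-tumor libraries it was at 178–265 with and 348–447 without PancVAX, and in Percoll libraries at 228–339.7 and 462–554.

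The other 3 receptors stayed within the fold threshold. *Tnfrsf4* (-0.40, SE 0.09, adjusted *P* = 0.00807) and *Cd27* (-0.32, SE 0.07, adjusted *P* = 0.00445) were past the adjusted *P* threshold only, with 79 ± 9 CPM with PancVAX and 99.2 ± 5.94 without (SD, n = 4 pools each) for *Tnfrsf4* and 99.1 ± 4.24 CPM with PancVAX and 118 ± 5.7 without (SD, n = 4 pools each) for *Cd27*. Their pools did not overlap. *Tnfrsf18* had 229.9 ± 10.6 CPM with PancVAX and 224 ± 5.97 without (SD, n = 4 pools each), and its estimate was -0.04 (95% interval -0.15 to 0.08, adjusted *P* = 0.702). Its mean level and its estimate pointed opposite ways by small amounts, and CPM lacks the scaling between pools that the edgeR fit makes. *Tnfrsf4* was called without cells that held other cell types' UMIs, at -0.54 (adjusted *P* = 0.00434), or -0.66 with *Ccr2* not counted, and in Percoll libraries only, at -0.53 (adjusted *P* = 0.0180), and its estimate ran from -0.66 to -0.22 over 19 choices. Its whole-tumor libraries overlapped, at 66.3–94.9 with and 73–103 without PancVAX, and so did its Percoll libraries (64.7–90.4 and 88.8–131).

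**Figure D3:**
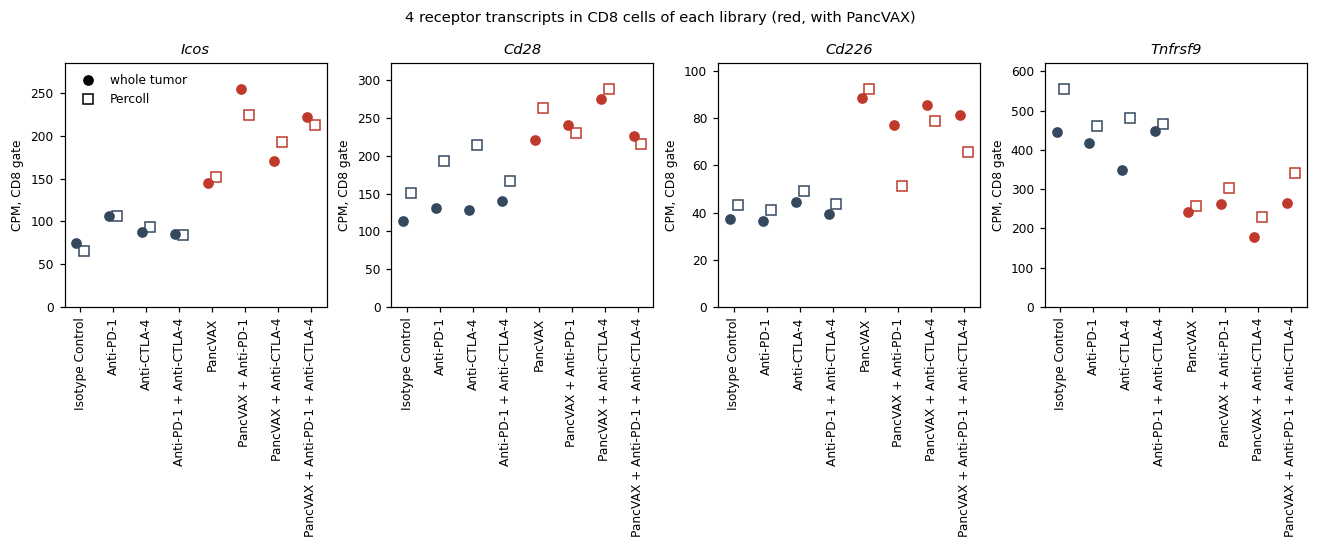
Level of *Icos*, *Cd28*, *Cd226*, and *Tnfrsf9* in CD8+ T cells of each of 16 libraries (CPM of the gate, linear axis from 0), with circles for whole tumors, open squares for Percoll libraries, and red for groups given PancVAX. Within each preparation, all libraries with PancVAX lie above those without it for the first 3 genes and below them for *Tnfrsf9*.

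Other properties of the CD8+ T cells moved with PancVAX too. *Pdcd1*-*Ly6c2*+*Ccl5*+ cells made up 27.95–34.07% of gated T cells in pools with it and 6.56–11.19% in pools without, *Pdcd1*+*Havcr2*+ cells 2.4–3.46% and 5.5–8.89%, and other *Pdcd1*+ cells 19.97–27.99% and 29.07–35.68%. Proliferating cells made up 18.36–21.88% and 23.08–28.7%, and the rest 5.82–7.37% and 11.65–18.2%. *Pdcd1*+*Tcf7*+ cells were more frequent with PancVAX, at 2.86–3.75% against 1.42–2.43%. *Tnfrsf9* was lowest in *Pdcd1*-*Ly6c2*+*Ccl5*+ cells, as given above. Markers of macrophages and monocytes (8 genes, none at 0) summed to 355–585 CPM in CD8+ T cells with PancVAX and 251–491 without, and neutrophil markers (5 genes, none at 0) to 106–259 and 60.5–109. B cell markers (5 genes, none at 0) were lower with PancVAX without overlap, at 29.3–58.1 against 59.6–73.2, as were mast cell markers (4 genes, none at 0), at 5.35–10.7 against 13.3–17.8. Tumor or epithelial markers (6 genes, none at 0) were at 40.8–72.6 and 24.3–44.9, and those of fibroblasts, endothelial, and dendritic cells overlapped as well. Without the cells that held such UMIs, *Icos*, *Cd226*, and *Tnfrsf9* were still called, and *Cd28* was not (0.49). With *Ccr2* not counted among the markers, *Cd28* was called as well. Depth per cell, given above, was lower with PancVAX, and its part was not tested beyond a limit of 2000 UMIs per cell, under which all 4 genes were called in CD8+ T cells as a whole.

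The same fit was made within each CD8+ state, a choice added after the data were seen. *Icos* rose in 5 of 6 states, from 0.86 (SE 0.16, adjusted *P* = 0.0108) in *Pdcd1*+*Havcr2*+ cells to 1.67 (SE 0.15, adjusted *P* = 7.7e-09) in *Pdcd1*-*Ly6c2*+*Ccl5*+ cells, where the pools were at 157, 183, 221, and 235 with and 39.9, 56.9, 59.5, and 62.5 without PancVAX. In the rest it was not called (0.64, SE 0.22, adjusted *P* = 0.380). Of all genes, 9.60% were called in proliferating, 0.992% in *Pdcd1*+*Havcr2*+, 4.35% in *Pdcd1*+*Tcf7*+, 8.12% in other *Pdcd1*+, 8.79% in *Pdcd1*-*Ly6c2*+*Ccl5*+, and 0.0506% in the rest.

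*Tnfrsf9* fell in 3 states. The estimate was -1.77 (SE 0.29, adjusted *P* = 0.00206) in *Pdcd1*+*Tcf7*+, -1.03 (SE 0.24, adjusted *P* = 0.00406) in *Pdcd1*-*Ly6c2*+*Ccl5*+, and -0.83 (SE 0.09, adjusted *P* = 1.3e-05) in proliferating cells. In *Pdcd1*+*Tcf7*+ cells the pools were at 56.1, 80.4, 89.4, and 152 with PancVAX and 115, 283, 419, and 443 without, which overlap through the isotype control pool at 115. Pools without PancVAX held only 11–30 cells of this state, the fewest in the isotype control pool, and those with it 39–90. *Tnfrsf9* was not called in other *Pdcd1*+ cells (-0.48, SE 0.11, adjusted *P* = 0.00838), in *Pdcd1*+*Havcr2*+ cells (0.02, SE 0.12, adjusted *P* = 0.982), or in the rest (-0.09, SE 0.13, adjusted *P* = 0.886). Whether the effect differed between states was not tested.

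*Cd226* rose in proliferating (1.15, SE 0.13, adjusted *P* = 2.5e-05) and other *Pdcd1*+ cells (0.69, SE 0.13, adjusted *P* = 0.00207). In *Pdcd1*-*Ly6c2*+*Ccl5*+ cells, where it was highest, its estimate was 0.18 (SE 0.17, adjusted *P* = 0.603). *Cd28* rose in *Pdcd1*-*Ly6c2*+*Ccl5*+ (0.56, SE 0.12, adjusted *P* = 0.00160) and proliferating cells (0.52, SE 0.11, adjusted *P* = 0.00351), and *Cd27* fell in *Pdcd1*-*Ly6c2*+*Ccl5*+ cells (-0.57, SE 0.15, adjusted *P* = 0.00863), with 70.5, 77.1, 78.1, and 87.5 with PancVAX and 97.1, 101, 102, and 111 without. *Tnfrsf4* and *Tnfrsf18* were called in none of the 6 states. The sign for *Tnfrsf4* changed between states, from -0.47 in proliferating to 0.23 in other *Pdcd1*+ and 0.36 in *Pdcd1*+*Havcr2*+ cells. The plot of PancVAX effects by gate gives all these estimates.

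**Figure D4:**
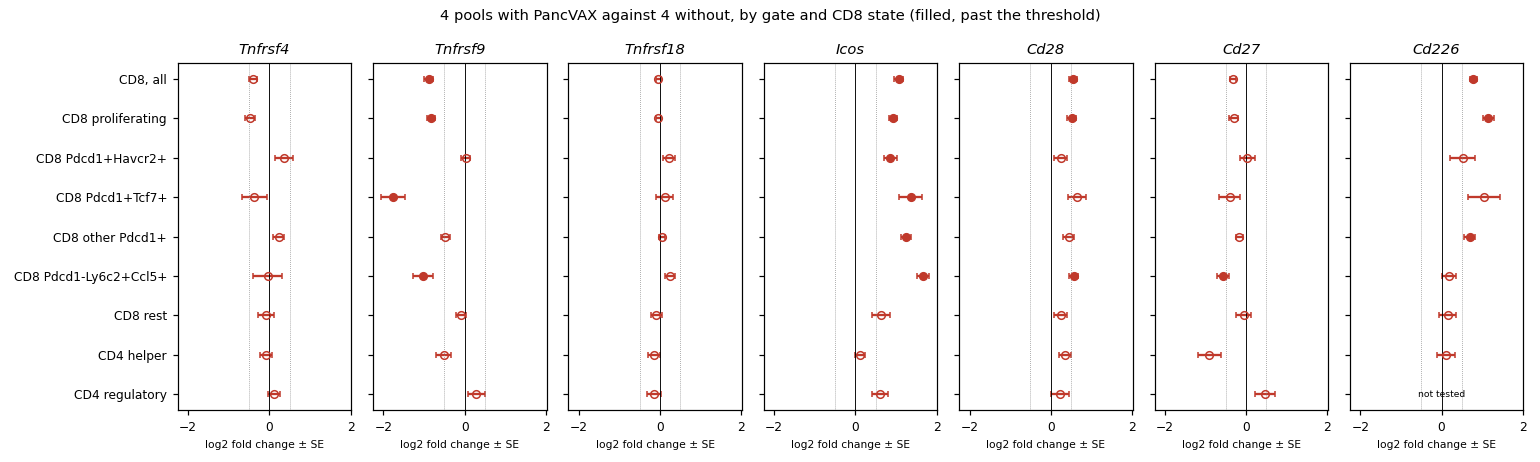
Log2 fold change (edgeR, with SE) of each receptor gene between 4 pools with and 4 without PancVAX, in all CD8+ T cells, in 6 CD8+ states, and in helper and regulatory CD4+ T cells, filled where the gene was called. *Icos* lies above 0 in every gate shown and is called in all CD8+ T cells and 5 states. *Tnfrsf9* is lowest in *Pdcd1*+*Tcf7*+ cells (-1.77), where pools without PancVAX held 11–30 cells.

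In the 3 *Pdcd1*+ states together (4014 cells), 3 of 7 receptors were called, where 8.43% of genes were. *Icos* rose by 1.16 (SE 0.11, adjusted *P* = 9.6e-06), at 171, 218, 239, and 274 with PancVAX and 76.8, 90.9, 98.2, and 115 without, and *Cd226* by 0.69 (SE 0.10, adjusted *P* = 4.2e-04), and the pools overlapped for neither. *Tnfrsf9* fell by 0.51 on the log2 scale (SE 0.10, adjusted *P* = 0.00364), at the edge of the fold threshold. It was not called without the PancVAX plus anti–CTLA-4 pool (-0.39), the isotype control pool (-0.44), the anti–PD-1 plus anti–CTLA-4 pool (-0.49), or the anti–CTLA-4 pool (-0.49). Other choices that ended this call were no upper limits (-0.35), libraries in place of pools (-0.50), cells with 2000 or more UMIs (-0.49), and Percoll libraries only (-0.49), so that it was called under 11 of 19 choices. *Cd226* was not called in Percoll libraries only (0.47). *Cd28* had an estimate of 0.45 (SE 0.10, adjusted *P* = 0.00576) and was called without any 1 of 3 pools, at 0.51 without PancVAX plus both antibodies, 0.52 without anti–CTLA-4, and 0.55 without anti–PD-1. It was also called in the fit of 16 libraries (0.51), with no upper limits (0.51), and in whole-tumor libraries only (0.80).

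Of the pathway lists in CD8+ T cells with PancVAX, 6 of 14 other costimulatory receptors rose and 1 fell (median 0.42, against 0.01 over all genes, of which 11.7% were called). They included the ligand gene *Cd40lg* (2.83), *Tnfrsf25* (2.14), which encodes death receptor 3, and *Cd244a* (-1.44), which encodes 2B4. The TRAF and NF-kB list had 2 higher and 1 lower of 21 (median 0.22), *Nfkbia* (1.21), the inhibitor that NF-kB itself induces, *Traf1* (0.52), and *Traf5* (-0.61). In the CD28 family signaling list *Prkcq* rose (0.53) and *Akt1* fell (-0.55), and the median of 13 genes was 0.15, so that in this list and the one before it the share called lay near that over all genes. *Pvrig* fell (-0.65) as 1 of 4 inhibitory receptors (median -0.40). Of 7 ligands, 3 rose and 1 fell (median 0.48), with *Tnfsf9* at 1.47, *Cd80* at 0.83, and *Tnfsf4* at -0.63. The part of other cell types' UMIs in the ligand levels, here and in the other comparisons, was not tested.

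In helper cells none of the 7 receptors was called with PancVAX, where 1.45% of genes were. *Cd27* had an estimate of -0.91 (SE 0.28, adjusted *P* = 0.140), *Tnfrsf9* of -0.52 (SE 0.18, adjusted *P* = 0.196), and *Cd28* of 0.35 (SE 0.15, adjusted *P* = 0.279). *Cd28* was at 326, 333, 351, and 414 with PancVAX and 225, 261, 299, and 309 without, which did not overlap. *Icos* was at 365, 426, 492, and 523 and 364, 411, 427, and 466, with an estimate of 0.11 (95% interval -0.15 to 0.36, adjusted *P* = 0.787). *Tnfrsf9* was called without the anti–PD-1 pool, at -0.75 (adjusted *P* = 0.0231). *Cd27* was called with no filter on low counts (-0.85) and in Percoll libraries only (-1.52). Of the lists, *Malt1* (-0.81) of CD28 family signaling was the 1 gene called.

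The PancVAX effect was also compared between CD8+ and helper cells in one fit. *Icos* was the 1 receptor called, where 1.23% of genes were, with an effect larger by 0.91 (SE 0.13, adjusted *P* = 1.5e-05) in CD8+ T cells. With no upper limits on genes and UMIs per cell, it was 0.59 (adjusted *P* = 0.300). For *Tnfrsf9* the difference was -0.44 (95% interval -0.70 to -0.18, adjusted *P* = 0.0853), and it was called without the anti–PD-1 plus anti–CTLA-4 pool (-0.64), without the isotype control pool (-0.56), and at a mitochondrial limit of 5% (-0.53). *Tnfrsf4* (-0.38, 95% interval -0.64 to -0.12, adjusted *P* = 0.178) was called without the first of these pools (-0.60) and without cells that held other cell types' UMIs (-0.71, or -0.70 with *Ccr2* not counted). For *Cd226* it was 0.59 (95% interval 0.12 to 1.05, adjusted *P* = 0.287), and for *Cd28* 0.13 (95% interval -0.12 to 0.38, adjusted *P* = 0.813). Of the list of other costimulatory receptors, 6 of 15 had a larger effect in CD8+ T cells, led by the ligand gene *Cd40lg* (2.69), *Ly9* (1.53), and *Slamf6* (1.44).

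Regulatory cells were few, with 18–45 in a pool, and *Cd226* was below the count filter there. None of the other 6 receptors was called with PancVAX, where 0.0395% of genes were. *Icos* was at 788, 817, 1164, and 1193 with PancVAX and 418, 593, 668, and 863 without, with an estimate of 0.61 (95% interval 0.21 to 1.00, adjusted *P* = 0.488). *Tnfrsf4* was at 2298, 2442, 2535, and 2725 and 2063, 2129, 2344, and 2431, and its estimate was 0.11 (95% interval -0.19 to 0.41, adjusted *P* = 0.915). *Tnfrsf9* was at 1624, 1696, 2366, and 2772 and 1058, 1523, 1772, and 2358. All 3 overlapped between groups. The step from helper to regulatory cells was not called as different with PancVAX for any receptor, where 0.143% of genes were called, with the largest estimates for *Cd27* (1.37, 95% interval 0.56 to 2.17, adjusted *P* = 0.338) and *Tnfrsf9* (0.81, 95% interval 0.42 to 1.19, adjusted *P* = 0.130). *Cd27* was called there without the pool given all 3 agents (1.83). *Tnfrsf9* was called there in whole-tumor libraries only (1.33). That fit had 5 whole-tumor libraries with 10 or more regulatory cells, which leaves little from which to estimate the spread.

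Neither antibody changed a receptor past the threshold. In CD8+ T cells, no gene at all was called with anti–PD-1 (0% of 10958) or anti–CTLA-4 (0%) by edgeR, where 482 and 443 had an unadjusted *P* below 0.05, and DESeq2 called 4 and 1. The largest receptor estimate with anti–PD-1 was that of *Icos*, 0.36 (95% interval 0.15 to 0.57, adjusted *P* = 1.00). Among pools with PancVAX, *Icos* was at 239 and 217 with anti–PD-1 and 149 and 181 without it, and among the others at 107 and 84.1 against 70.7 and 91.5. With anti–CTLA-4 the largest was *Cd28*, 0.12 (95% interval -0.07 to 0.32, adjusted *P* = 1.00).

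In helper cells the share of genes called was 0.0182% with anti–PD-1 and 0.0546% with anti–CTLA-4, and in regulatory cells it was 0.0791% with either. None was a costimulatory receptor of the 7. *Tnfrsf9* had the largest estimate with anti–CTLA-4 in helper cells, 0.41 (95% interval 0.05 to 0.77, adjusted *P* = 0.950), and *Cd28* in regulatory cells, 0.41 (95% interval -0.03 to 0.85, adjusted *P* = 0.995). In the regulatory gate with anti–PD-1, *Tnfrsf9* had 0.32 (95% interval -0.09 to 0.72, adjusted *P* = 0.965).

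Both antibodies added to PancVAX were compared with PancVAX alone, in a fit of all 16 libraries with preparation as a covariate. None of the 7 was called in *Pdcd1*+ CD8+ cells, where 0.186% of genes were, or in helper cells, where 0.0986% were. *Icos* in *Pdcd1*+ cells had an estimate of 0.48 (95% interval 0.22 to 0.74, adjusted *P* = 0.206), with 239 CPM in the pool with the antibodies and 171 in the pool without. In helper cells the largest estimate was that of *Cd226*, -0.76 (95% interval -1.53 to 0.01, adjusted *P* = 0.821). Each arm held 2 libraries of 1 group, so that these tests measure the spread between libraries.

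Percoll and whole-tumor libraries of the same group were compared as pairs. No receptor was called in CD8+ T cells, where 6.28% of genes were, or in helper cells, where 2.76% were. *Tnfrsf9* was past the adjusted *P* threshold in CD8+ T cells with a small fold (0.24, SE 0.05, adjusted *P* = 0.00190), as were *Cd28* (0.23, SE 0.07, adjusted *P* = 0.0143), *Tnfrsf18* (0.15, SE 0.04, adjusted *P* = 0.0109), and *Cd27* (-0.20, SE 0.06, adjusted *P* = 0.0171). The Percoll step and the sequencing batch cannot be told apart. Of the lists, 2 genes of TRAF and NF-kB signaling were higher in Percoll libraries in each gate, of 21 and 16 tested, *Nfkbia* (0.90) and *Relb* (0.52) in CD8+ T cells and *Nfkbia* (0.64) and *Tnfaip3* (0.57) in helper cells. *Slamf6*, of the other costimulatory receptors, was lower in CD8+ T cells of Percoll libraries (-0.60).

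T cell receptor sequences of the 8 Percoll libraries allowed a comparison by clone. Cells of a library were taken as a clone where their TRB chains shared V gene and CDR3. CD8+ T cells of clones with 3 or more cells (2535, 132–476 in a library) were set against those of clones seen once (1474, 83–273). *Tnfrsf9* was the 1 receptor called, where 8.77% of genes were. Its lowest, median, and highest levels were 301, 528, and 675 CPM in expanded and 156, 185, and 323 in single clones. It was higher in expanded clones in 8 of 8 libraries (log2 fold change 1.22, SE 0.10, adjusted *P* = 1.2e-07), from 301 against 222.1 in the PancVAX library to 674.9 against 322.6 in the isotype control library.

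The other TNF receptor genes had smaller differences. *Tnfrsf4* (0.37, SE 0.11, adjusted *P* = 0.0185), *Tnfrsf18* (0.28, SE 0.06, adjusted *P* = 0.00448), and *Cd27* (0.21, SE 0.07, adjusted *P* = 0.0495) were each higher in expanded clones in 8 of 8 libraries but below the fold threshold. *Tnfrsf4* was called with no upper limits (0.72). *Cd226* was lower in 7 of 8 libraries (-0.39, SE 0.12, adjusted *P* = 0.0315) and was called without the library given all 3 agents (-0.52). *Icos* (-0.12, 95% interval -0.28 to 0.04, adjusted *P* = 0.382) and *Cd28* (-0.16, 95% interval -0.32 to 0.00, adjusted *P* = 0.215) were not called. Of the lists, 3 of 4 inhibitory receptors were higher in expanded clones, where 8.77% of all genes were called, *Pvrig* (0.78), *Tigit* (0.77), and *Cd96* (0.58). Of 11 other costimulatory receptors 2 were higher and 2 lower, among them *Cd244a* (1.70), *Slamf6* (-1.38), and *Ly9* (-1.18). Of 5 ligands *Tnfsf4* (1.35) and *Cd80* (1.00) were higher. None of 13 CD28 family signaling genes was called, and of 21 TRAF and NF-kB genes none was called by edgeR (median -0.03). The CD8+ states that expanded and single clones held were not compared.

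**Figure D5:**
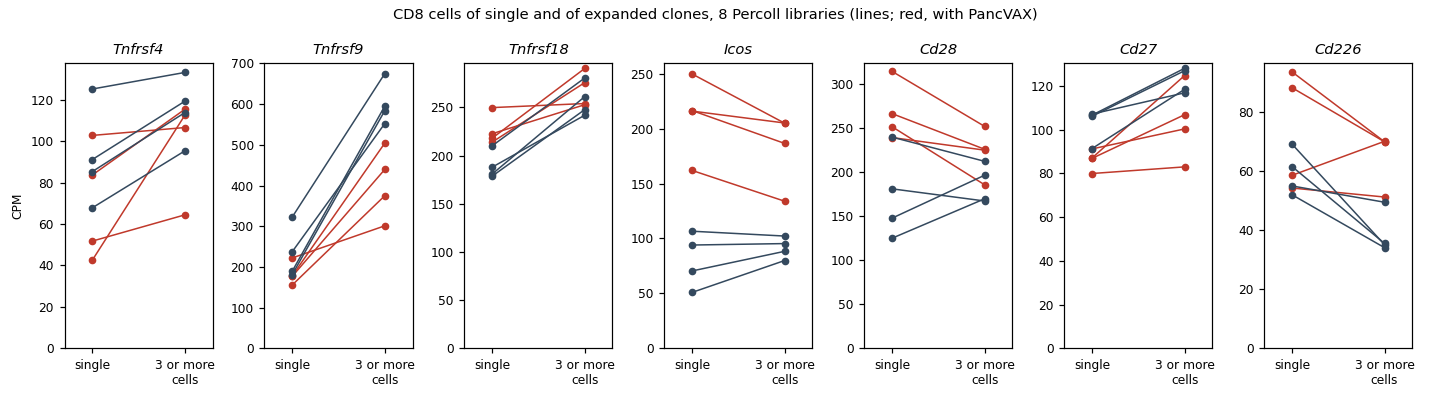
Level of each receptor gene (CPM) in CD8+ T cells of single clones and of clones with 3 or more cells, with 1 line per Percoll library (8), red with PancVAX. Every line rises for *Tnfrsf9*, from a median of 185.4 to 528.1, and lines of *Icos* and *Cd28* run both ways.

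The genes whose pattern was most like each receptor were found over 64 gate-by-pool sums and 5225 genes, by Pearson's r of log2 levels. The sums of a pool share libraries and gates differ widely, so that r is a description only. For *Tnfrsf4* they were *Ccr8* (0.937), *Tnfrsf18* (0.932), and *Sdf4* (0.928), and for *Tnfrsf18* they were *Sdf4* (0.955), *Odc1* (0.937), and *Tnfrsf4*. *Sdf4*, the neighbor named above, was at 2035 CPM in regulatory cells, 1057 in helper cells, and 209.9–422.9 in CD8+ states. *Tnfrsf9* was nearest to *Itgav* (0.938), *Samsn1* (0.906), and *Rbpj* (0.894).

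*Icos* was nearest to *Cd2* (0.916), *H2-K1* (0.903), and *Arhgap31* (0.901), and *Cd28* to *Ddx5* (0.826), *Il7r* (0.789), and *Mxd1* (0.782). *Cd27* had lower values, with *Ptprcap* (0.75), *Ubash3b* (0.72), and the gate gene *Foxp3* (0.654). *Cd226* was nearest to *Ms4a4b* (0.821), the gate gene *Ly6c2* (0.768), and *Dusp2* (0.729), and its r with the other 6 receptors ran from -0.648 with *Tnfrsf9* to 0.0547 with *Cd28*.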

How the data were processed

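The authors deposited raw UMI counts per gene and barcode, which they made from 10x 5′ libraries with Cell Ranger 4.0.0 on mm10, per the labels, and T cell receptor contigs of the Percoll libraries. The number that ends a barcode was taken to give its library in the order of the sample descriptions, which no other file could check. Cells within the authors' limits were clustered with scanpy 1.11.5 and igraph 0.11.9 (25 components of 2000 variable genes without the 7 receptors, batch corrected by a reimplementation of Harmony, resolution 0.6), which gave 24 clusters. Rules that named clusters were adjusted after the data were seen. No doublet caller was run, and doublets can hold markers of another cell type.

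Counts of a gate were summed by pool, and pools with under 10 cells of the gate were left out. Sums were tested with edgeR 4.0.16 in R 4.3.3 (quasi-likelihood test, TMM, filterByExpr, two-sided, Benjamini-Hochberg). The study tested cells as replicates with MAST, which cells of 1 pool are not. SEs were taken from the log2 fold change and F. The 95% intervals were built from these SEs with the normal distribution, which makes them narrower than the F test on few pools allows. Such an interval can leave out no change where the test does not. With anti–PD-1 in CD8+ T cells, the interval of *Tnfrsf9* was 0.01 to 0.38, and its unadjusted *P* by the quasi-likelihood test was 0.0674. Nothing in the labels says that pools are independent experiments, so that *P* values measure the spread between pools. The depth of a gate, 18–45 regulatory cells in a pool, limits small changes. Scripts were tested on simulated data.

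All 7 receptors are named, with up to 3 called genes of each pathway list (other costimulatory receptors, TRAF and NF-kB signaling, CD28 family signaling, inhibitory receptors, ligands) where its count is given, 3 similar genes per receptor, and check markers of the gates. The receptors and lists were chosen with earlier results of these data known. Other choices tried were DESeq2 1.42.0, all genes without the filter, other T cell definitions and cell limits, no upper limits, removal of cells with 2 or more UMIs of other cell types' markers, libraries in place of pools, single preparations, no pairing, clones of 2 or more cells, and leaving out each pool. Removal without *Ccr2* and the fits within states were added after the data were seen. A planned CD8+ state and the comparison against it are not reported here, and its cells were counted with the rest, a change also made after the data were seen.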

Additional observations from a re-analysis of the deposited data

Results flagged for a closer look

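Of 56 groups of 4 pools screened, 2 held a pool far from the other 3, and chance alone gives about 1 in 20. *Tnfrsf4* in *Pdcd1*+ CD8+ T cells without PancVAX was at 118.6 CPM in the isotype control pool and at 88.5, 89.3, and 89.8 in the others. *Cd28* in regulatory cells without PancVAX was at 313.4 in the anti–CTLA-4 pool and at 230.9, 231.6, and 234.4 in the others. The effect of PancVAX on *Icos* was larger in CD8+ than in helper T cells by 0.91 on the log2 scale (adjusted *P* = 1.5e-05, edgeR with Benjamini-Hochberg adjustment), a test of the difference itself.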

How the results depend on the processing

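The 27 called receptor comparisons gave 488 values under the alternatives other than single CD8+ states, of which 462 stayed called in the same direction and none reversed. The 117 that were not called gave 2059 values, of which 2028 stayed so. The number of receptors called was 4 with PancVAX in CD8+ T cells as reported, 1 in *Pdcd1*+*Havcr2*+, 2 in *Pdcd1*+*Tcf7*+, 2 in other *Pdcd1*+ cells, and 0 in the rest, and *Tnfrsf9* turned to 0.02 in *Pdcd1*+*Havcr2*+ cells. It was 3 in *Pdcd1*+ cells and 1 with Percoll libraries only. With PancVAX in helper cells it was 0 as reported, 1 with no filter (*Cd27*, -0.85), 1 with Percoll libraries only (*Cd27*, -1.52), and 0–1 when pools were left out. For *Pdcd1*+*Tcf7*+ against *Pdcd1*+*Havcr2*+ cells it was 1 as reported, 2 with no filter, 2 with no upper limits, 2 without cells holding other cell types' UMIs, 3 with *Ccr2* not counted, and 1–2 when pools were left out. For clones it was 1 as reported, 2 with no upper limits (*Tnfrsf4*, 0.72), and 1–2 when libraries were left out. For CD8+ minus helper effects it was 1 as reported, 0 with no upper limits, 2 at a mitochondrial limit of 5%, 2 without cells holding other types' UMIs, 2 with *Ccr2* not counted, and 1–3 when pools were left out. For regulatory minus helper by PancVAX it was 0 as reported, 1 with whole-tumor libraries only (*Tnfrsf9*, 1.33, over 5 libraries), and 0–1 when pools were left out. The cause was not tested. Without cells holding other types' UMIs, 3 pools had 10 regulatory cells, and treatment effects in that gate could not be fitted.

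Of all genes, the number called, with the lowest and highest number over the alternatives in parentheses, was as follows: PancVAX in CD8+ T cells 1278 (372–1487), anti–PD-1 in CD8+ T cells 0 (0–23), anti–CTLA-4 in CD8+ T cells 0 (0–27), PancVAX in helper cells 80 (1–208), anti–PD-1 in helper cells 1 (0–42), anti–CTLA-4 in helper cells 3 (0–41), PancVAX in regulatory cells 1 (0–20), anti–PD-1 in regulatory cells 2 (0–14), anti–CTLA-4 in regulatory cells 2 (0–11), PancVAX in *Pdcd1*+ cells 795 (362–1026), both antibodies in *Pdcd1*+ cells 15 (0–114), both antibodies in helper cells 4 (0–35), regulatory against helper 720 (210–978), *Pdcd1*+*Havcr2*+ against *Pdcd1*-*Ly6c2*+*Ccl5*+ 1285 (716–1645), *Pdcd1*+*Tcf7*+ against *Pdcd1*+*Havcr2*+ 459 (135–556), Percoll in CD8+ T cells 641 (354–753), Percoll in helper cells 112 (3–149), expanded clones 721 (375–914), CD8+ minus helper 130 (9–169), regulatory minus helper by PancVAX 6 (0–13). In single CD8+ states, PancVAX gave 3–876 genes, and helper against CD8+ T cells, 1374 genes, stayed within 1.5 times that count. In pairs of preparations of the same group, the fit without the replicate block (the pairing by group) left the number of receptors called at 0 for both preparation comparisons. Gate and clone comparisons were not fitted without the block. For all genes the fit without it gave 354 for Percoll in CD8+ T cells and 52 in helper cells. Where both antibodies were added, the term for preparation was the block, and without it no receptor was called, and the 15 genes called in *Pdcd1*+ cells and the 4 in helper cells both went to 0. No label says whether both libraries of a group hold the same mice. In regulatory and *Pdcd1*+*Tcf7*+ cells precision is limited, with 10 or more cells in 5 of 8 whole-tumor and 7 of 8 Percoll libraries.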

Other observations

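Cells outside the T cells also held UMIs of the receptors, at low levels. *Tnfrsf18* was at 22.3 CPM in the B cell clusters (2750 cells, detected in 4.18%) and 17.8 in the neutrophil clusters (8159 cells, 2.87%), against 2.62 in macrophages and monocytes (13968 cells, 0.938%). *Tnfrsf9* was detected in 4.6% of cells of the tumor or epithelial clusters (3804 cells, median 2995 UMIs) and 1.39% of macrophages and monocytes (median 4059). *Icos*, *Cd28*, *Cd27*, and *Cd226* were each detected in at most 0.618% of the cells of these 4 classes. Where these UMIs came from was not tested.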
